A study of Mus musculus with 6 samples.

Results

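*Fshr*, *Rhox8*, *Rhox5*, *Eppin* and *Corin* are 5 genes tied to the hormones that act on Sertoli cells, follicle-stimulating hormone (FSH) and testosterone. They were chosen by gene symbol, and all 5 were found among the 28262 genes of the count table. The values came from RNA-seq of purified mouse Sertoli cells, the somatic cells that line the seminiferous tubule and nurse the germ cells. The cells came from testes of untreated C57BL/6 mice aged 20 days and were cultured at 34 °C in humidified air with CO2. The control group had 3 libraries of *Pa1*F/F cells, in which both *Pa1* alleles are floxed, and the knockout group had 3 libraries of *Pa1*-/- cells. In the knockout, Cre under control of the *Amh* promoter removes the floxed alleles in Sertoli cells, and the other cells of the testis keep *Pa1*. PA1 is a partner of PTIP in the MLL3/MLL4 histone methyltransferase complexes. The medium described in the methods of the study held insulin, EGF and transferrin, and neither FSH nor testosterone is named in it. Reads of *Pa1* were not analysed here, and genotypes were taken from the labels alone.

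FSH from the pituitary binds FSHR, a receptor coupled to the stimulatory G protein on the Sertoli cell surface, and cAMP then activates protein kinase A and the CREB family of transcription factors. Testosterone enters the cell and acts in the nucleus on the transcription of its target genes, with the help of chaperones and coregulators. *Rhox8* and *Rhox5* are homeobox genes of the reproductive cluster on the X chromosome, and both are used as readouts of androgen action in Sertoli cells. *Eppin* encodes a protease inhibitor with a WAP and a Kunitz domain that coats spermatozoa, and *Corin* encodes a transmembrane serine protease that activates the precursor of atrial natriuretic peptide.

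The promoters of *Fshr* and *Eppin* are shown because an E-box is a known element of the *Fshr* promoter and because that of *Eppin* held a palindrome with the letters of a steroid receptor element. Each runs from 250 bases before to 50 bases after the start of the gene, is written 5′ to 3′ on the strand of the gene, and was taken from RefSeq (GRCm38.p6, the build of the deposited coordinates). *Fshr* lies at chr17:89200626-89200925, minus strand, with the E-box CACGTG in capitals, and *Eppin* at chr2:164593522-164593821, minus strand, with GAAC and GTTC separated by 5 bases in capitals.
Fshr: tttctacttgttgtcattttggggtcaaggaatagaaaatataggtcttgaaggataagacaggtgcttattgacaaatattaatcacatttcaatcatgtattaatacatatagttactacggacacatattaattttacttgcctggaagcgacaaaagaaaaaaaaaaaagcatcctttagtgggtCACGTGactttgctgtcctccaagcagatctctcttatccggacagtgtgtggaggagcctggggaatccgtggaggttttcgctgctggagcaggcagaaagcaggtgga
Eppin: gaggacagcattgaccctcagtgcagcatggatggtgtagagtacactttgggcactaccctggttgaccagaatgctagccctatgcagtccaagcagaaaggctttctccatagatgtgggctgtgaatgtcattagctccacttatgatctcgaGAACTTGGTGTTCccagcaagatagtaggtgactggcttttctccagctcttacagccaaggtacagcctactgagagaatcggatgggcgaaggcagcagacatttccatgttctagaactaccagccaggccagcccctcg
The E-box of *Fshr* began 61 bases before the start and 7.15% of 32851 RefSeq promoters of the same length held one. The palindrome of *Eppin* began 93 bases before the start, and 0.368% of the promoters held one. Both motifs read the same on either strand. The half-site AGAACA, searched on both strands, was found in 19.0% of the promoters. *Eppin* had 1 match, which lies outside the palindrome, and *Fshr* and *Corin* had none. The motifs were chosen after the sequences had been read, a match is a description of letters only, and no table used here held a promoter for *Rhox8*. The entry for *Rhox5* started 50.2 kb away from the deposited gene and was not used.

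The libraries held between 13203757 and 16231443 counts on genes, and a count of 3, taken as the floor, stood at 0.185 to 0.227 CPM. All 14 Sertoli cell markers were above the filter. Without a stated strand setting, the values of *Crem*, *Fkbp5*, *Pcsk6*, *Junb*, *Cldn3*, *Gnas*, *Csf1r*, *Wfdc8* and *Wfdc10* are uncertain, since each overlaps a gene on the opposite strand, while *Adcy9*, *Cyp11a1*, *Insl3* and *Mrc1* overlap a gene on their own strand. One library of each genotype stood apart from the others: the SD over genes of the difference in log2 CPM was 0.267 between *Pa1*F/F replicates 1 and 3 but 0.469 and 0.474 against replicate 2, and it was 0.285 between *Pa1*-/- replicates 1 and 2 but 0.562 and 0.566 against replicate 3. Nothing in the labels says that replicates came from separate animals or cultures, so p-values measure the spread between these libraries, which may be technical. In bulk RNA, fewer cells of a type and less RNA per cell cannot be told apart.

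Of the 5 genes, 3 had enough counts for the test across all genes and none of them was called different between genotypes. A gene was called at an adjusted p under 0.05 (edgeR's quasi-likelihood test, Benjamini-Hochberg over 14919 genes) together with a log2 fold change of 1 or more in size, and 12.0% of the tested genes were called, 6.56% lower and 5.44% higher in *Pa1*-/- cells. An adjusted p under 0.05 alone was reached by 35.3% of the tested genes and by 0 of these 3. Groups of libraries did not overlap in 52.4% of the tested genes and in 0 of the 5 genes. Unadjusted p was under 0.05 for 0 of the 3 as well, and DESeq2's Wald test and limma-voom called 0. With 3 genes tested, a count of 0 cannot be told from that background. The plot of the 5 genes by library shows that *Pa1*-/- replicate 3 was the highest knockout library for each of them, as it was for 43.1% of tested genes.

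**Figure D1:**
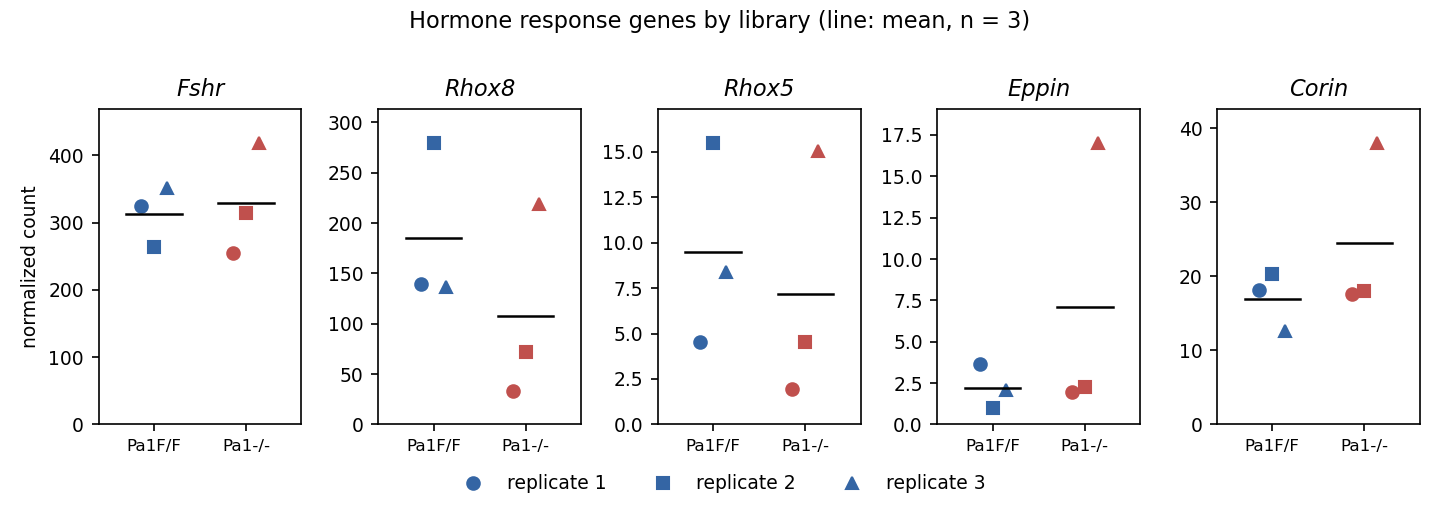
Normalized counts (vertical axis, from 0, a separate scale for each gene) of *Fshr*, *Rhox8*, *Rhox5*, *Eppin* and *Corin* in the 3 *Pa1*F/F (blue) and 3 *Pa1*-/- (red) libraries, with marker shape giving the replicate and the line the mean. *Pa1*-/- replicate 3 is the highest red point for each of the 5 genes, at 419 for *Fshr* and 218 for *Rhox8*.

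*Fshr* (ENSMUSG00000032937, chr17:88985170-89200612, minus strand), the receptor through which FSH acts, was measured in the control libraries, in the order of *Pa1*F/F replicates 1 to 3, at 324, 263 and 351 normalized counts. In the knockout libraries, in the same order, it was measured at 255, 314 and 419. The sets of libraries overlapped, with a knockout library at either end. The mean was 313 ± 45.1 (SD, n = 3) in control and 329 ± 83.1 (SD, n = 3) in knockout cells. The log2 fold change was 0.07 with a standard error of 0.20, a 95% interval from -0.40 to 0.55 and an adjusted p of 0.801 by edgeR's quasi-likelihood test, so a log2 fold change of 1 in either direction lies outside the interval of the fit with all 6 libraries. Its sign depended on the libraries. It was -0.14 without *Pa1*-/- replicate 3, -0.04 without *Pa1*F/F replicate 2 and -0.25 (edgeR adjusted p 0.0503) without both. Leaving out both was a choice made after the data had been seen. It keeps the libraries closest to each other, so the selection itself lowers the spread and tends to lower the p. *Fshr* has no overlapping gene in the table. Its neighbours were *Lhcgr*, the luteinizing hormone receptor, 193 kb away with a mean of 9.86 ± 3.65 in control and 2.40 ± 0.54 normalized counts in knockout cells (SD, n = 3), which the filter removed, and *Gm10184*, 708 kb away, at a log2 fold change of 1.24 with an edgeR adjusted p of 0.0625.

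*Rhox8* (ENSMUSG00000064137, chrX:37874778-37878944, minus strand) gave 139.5, 279.8 and 136.3 normalized counts in control replicates 1, 2 and 3. In the knockout it gave 33.2, 72.1 and 218 normalized counts in the same order. Replicates 1 and 2 of the knockout lay below all 3 control libraries, while replicate 3 lay above 2 of them. The mean was 185 ± 81.9 in control and 107.9 ± 97.7 in knockout cells (SD, n = 3), a 1.71-fold lower fitted level, with a log2 fold change of -0.78, a standard error of 0.65, a 95% interval from -2.31 to 0.76 and an adjusted p of 0.387 (edgeR). Without *Pa1*-/- replicate 3 the log2 fold change was -1.83 (interval -2.89 to -0.76, edgeR adjusted p 0.0157) and *Rhox8* was called lower, in a fit that called 13.5% of its 15354 tested genes. Without *Pa1*F/F replicate 2 as well it was -1.42 (edgeR adjusted p 7.46e-06), a setting chosen after the data had been seen. That setting keeps the libraries closest to each other, so the selection itself lowers the spread and tends to lower the p. It called 2207 of all genes, where the fit with all 6 libraries called 1791. Without *Pa1*F/F replicate 2 alone the log2 fold change of *Rhox8* was -0.35 (edgeR adjusted p 0.738).

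*Rhox5* (ENSMUSG00000095180, chrX:37804842-37808876, plus strand), 65.9 kb from *Rhox8* with no other listed gene between them, was near the floor of detection. Its raw counts were 5, 16 and 8 in the control and 2, 4 and 15 in the knockout libraries, in the order of the replicates. The filter on low counts removed it, and in a fit without the filter its log2 fold change was -0.36 with a 95% interval from -1.87 to 1.15 and an edgeR adjusted p of 0.762. At this depth a difference within that interval was not detectable. The difference in mean normalized counts, knockout minus control, was -2.31 with all libraries and turned direction when 1 library was left out. It was 0.70 without *Pa1*F/F replicate 2, 0.30 without *Pa1*-/- replicate 1 and -6.24 without *Pa1*-/- replicate 3. *Rhox5* ordered the libraries of each genotype nearly as *Rhox8* did. Pearson's r was 0.94 between their log2 normalized counts over the 6 libraries, with a small constant added to each count. This r is a description of libraries that share their depth and their outliers. Of the *Rhox* family, 7 genes are listed, and *Rhox8* and *Rhox5* were the members with at least 10 counts in any library. The neighbour of *Rhox8* on its other side, *Rhox7b*, and the far neighbour of *Rhox5*, *Gm9*, had mean normalized counts of 0.67 and 0.30 in control cells and 0 in each knockout library.

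*Eppin* (ENSMUSG00000017733, chr2:164588343-164593594, minus strand) had raw counts of 4, 1 and 2 in the control and of 2, 2 and 17 in the knockout libraries, in the order of the replicates. The first 5 of these values lie within a few counts of the floor, and *Pa1*-/- replicate 3 stood alone at 17.0 normalized counts. The gene was removed by the filter. Without the filter its log2 fold change was 1.64 (95% interval -0.38 to 3.66, edgeR adjusted p 0.297), and the difference in mean normalized counts, 4.85, was -0.13 without *Pa1*-/- replicate 3. Epididymal epithelium, where EPPIN is best known, was checked with 8 marker genes: 2 were listed and their summed level was at most 0.664 CPM in a knockout library and 0.493 CPM in a control library.

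*Eppin* lies in a cluster of WAP four-disulfide core genes, small secreted protease inhibitors. Of 17 genes of the cluster 10 were listed and 3 could be tested, all 3 of them low. *Wfdc6a*, 2.90 kb from *Eppin* on the same strand, was called higher, with 6.34, 11.6 and 2.098 normalized counts in control and 30.3, 22.5 and 50.1 in knockout libraries, a log2 fold change of 2.33 ± 0.54 (SE) and an adjusted p of 0.0165 (edgeR). The call was lost without *Pa1*F/F replicate 1 (log2 fold change 2.29, edgeR adjusted p 0.0659). *Wfdc10* was called lower, with 38.1, 33.9 and 26.2 against 0.976, 5.63 and 6.01 normalized counts and a log2 fold change of -2.95 ± 0.47 (SE, edgeR adjusted p 0.00416), although it overlaps *Wfdc9* on the opposite strand and the strand setting of the counting is not stated. *Wfdc3* was called lower at a log2 fold change of -1.19 (edgeR adjusted p 0.0300), and lost the call when any 1 of the 6 libraries was left out, with adjusted p from 0.0547 to 0.104. *Wfdc8*, on the other side of *Eppin* at 2.86 kb, had mean normalized counts of 3.48 and 1.13 and was not tested.

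*Corin* (ENSMUSG00000005220, chr5:72300025-72504473, minus strand) had 18.1, 20.3 and 12.6 normalized counts in control and 17.6, 18.0 and 38.1 in knockout replicates 1, 2 and 3. One knockout library lay above the others and the rest of the values were interleaved. The mean was 17.0 ± 3.99 against 24.6 ± 11.7 (SD, n = 3), with a log2 fold change of 0.53, a standard error of 0.39, a 95% interval from -0.40 to 1.45 and an adjusted p of 0.335 (edgeR). Without *Pa1*-/- replicate 3 the log2 fold change was 0.06 (edgeR adjusted p 0.905). *Atp10d*, 1.25 kb from *Corin*, was called higher (mean 149 ± 4.23 in control and 339 ± 67.9 normalized counts in knockout cells, SD, n = 3, log2 fold change 1.19, edgeR adjusted p 0.00216), and *Nfxl1*, 8.83 kb away on the other side, had a log2 fold change of -0.05 (edgeR adjusted p 0.786).

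Per kilobase of exon, *Rhox8* was the highest of the 5 genes in control cells at 10.5 CPM per kb and *Fshr* was next at 7.94, with control libraries from 7.70 to 15.8 and from 6.68 to 8.91 that overlapped. In knockout cells the mean of *Fshr* was 8.35 CPM per kb and that of *Rhox8* 6.09, with libraries that overlapped (6.46 to 10.6 and 1.87 to 12.3). *Rhox5*, *Eppin* and *Corin* were lower by more than their spread, with control means of 0.422, 0.195 and 0.159 CPM per kb. Control libraries of *Eppin* overlapped those of *Rhox5* and of *Corin*, while those of *Rhox5* (0.202 to 0.690) lay above those of *Corin* (0.117 to 0.190). The exact two-sided permutation test on normalized counts gave 1, 0.4, 0.5, 0.6 and 0.6 for *Fshr*, *Rhox8*, *Rhox5*, *Eppin* and *Corin*, where 0.1 is the smallest p that 3 against 3 libraries allow.

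The settings plot shows how far the 3 tested genes moved when the processing or the libraries changed.

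**Figure D2:**
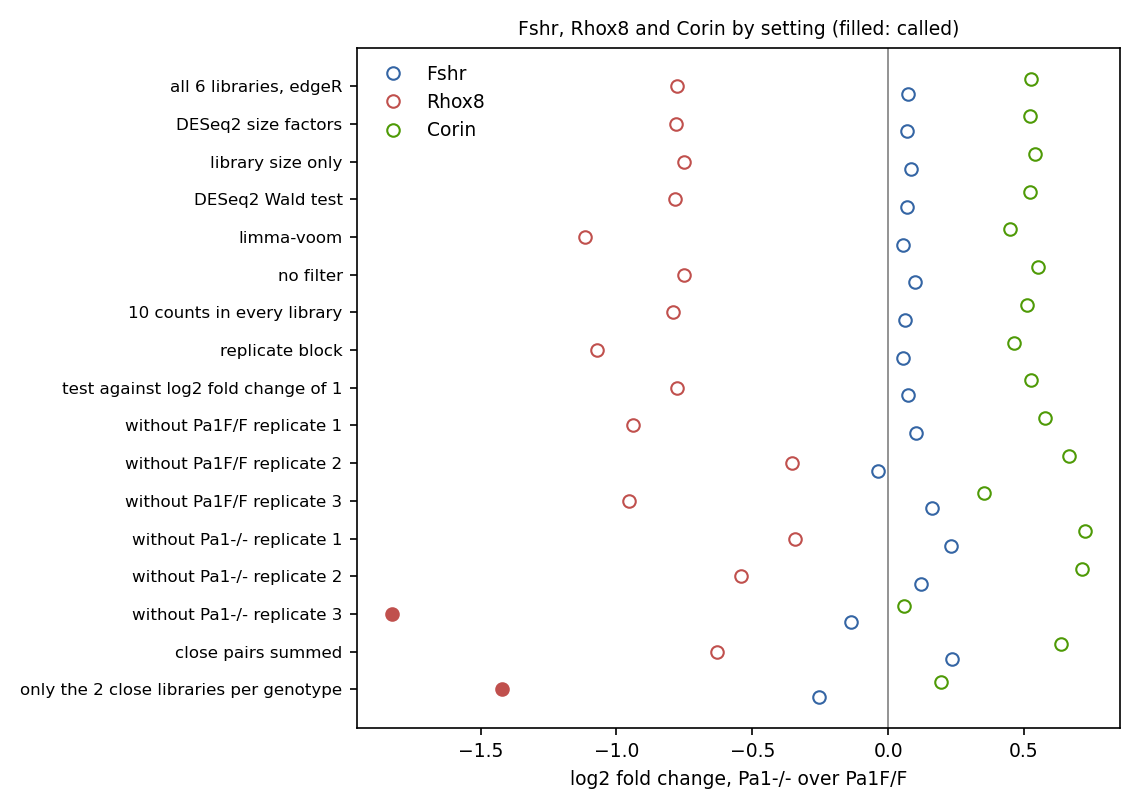
Log2 fold change of *Pa1*-/- over *Pa1*F/F (horizontal axis) for *Fshr*, *Rhox8* and *Corin* in each setting (vertical axis), with filled points called at an adjusted p under 0.05 and a log2 fold change of 1 or more in size. *Rhox8* is filled in the 2 settings that leave out *Pa1*-/- replicate 3, at -1.83 and -1.42.

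*Pa1*-/- replicate 3 differed from the other knockout libraries in more than these genes. It was at least 1.5 times the mean of replicates 1 and 2 in 10.7% of tested genes and at least 3 times that mean in 1.66% of them, while for the 5 response genes the ratio was 1.47 for *Fshr*, 4.65 for *Rhox5*, 4.15 for *Rhox8*, 8.10 for *Eppin* and 2.14 for *Corin*. Smooth muscle genes of peritubular myoid cells were among the genes that were high in it. *Cnn1*, calponin, stood at 53.5, 27.1 and 65.0 normalized counts in control and 34.2, 24.8 and 421 in knockout replicates 1, 2 and 3. The summed level of the 6 myoid markers, all listed and none at 0 in every library, was 222 to 283 CPM in control and 828 to 1268 CPM in knockout libraries. Most of that sum was *Acta2*, smooth muscle actin, at 3129, 2537 and 3239 normalized counts in control and 12312, 11886 and 15383 in knockout libraries, and it was the 1 called gene of the 5 tested. *Myh11*, smooth muscle myosin, had 649, 481 and 580 against 216, 164 and 1605. Without *Pa1*-/- replicate 3, 3 of the myoid markers were called lower and 1 higher, where the shares of all genes called were 12.0% with all libraries and 13.5% in that fit. *Amh*, the Sertoli cell hormone whose promoter drives the Cre, stood at 186, 254 and 179 in control and 43.9, 48.4 and 365 in knockout replicates 1, 2 and 3, an order like that of *Rhox8*. The part of these genes in the values of *Rhox8*, *Rhox5* and *Eppin* in this library was not tested.

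Genes of the pathway upstream of the response genes were read next, from lists chosen with earlier results of these data known. The FSH signalling list covers the G proteins, adenylyl cyclases, protein kinase A subunits, CREB factors with their coactivators, phosphodiesterases, arrestins and receptor kinases. Of its 40 genes 39 were tested, 4 were called lower and 1 higher, which at 12.8% is near the 12.0% of all genes, and the median log2 fold change was -0.06 (from -0.12 without *Pa1*-/- replicate 3 to 0.07 without *Pa1*-/- replicate 2) where that of all tested genes was 0.00. *Prkar2b*, a regulatory subunit of protein kinase A, had 571, 612 and 654 normalized counts in control and 265.5, 268 and 287 in knockout libraries, a log2 fold change of -1.16 ± 0.09 (SE). The adenylyl cyclase *Adcy9* fell by 1.36 on the log2 scale, from 381 ± 42.8 to 148 ± 22.6 normalized counts (SD, n = 3). The cyclase *Adcy7* fell by 1.04, from 2863 ± 265 to 1391 ± 128, and was between -0.985 and -0.998, short of the fold threshold, when *Pa1*F/F replicate 3, *Pa1*-/- replicate 1 or *Pa1*-/- replicate 2 was left out. For the phosphodiesterases, which break down cyclic nucleotides, *Pde3b* fell by 1.29 from 194 ± 20.2 to 78.8 ± 17.7 and *Pde4b* rose by 2.02 on the log2 scale from 24.2 ± 12.6 to 98.3 ± 13.6 (SD, n = 3). Each of these 5 had non-overlapping libraries, with edgeR adjusted p from 0.000253 to 0.00531. So had 27 of the 39 tested genes of the list and 52.4% of all tested genes.

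Genes at the core of the FSH cascade are given whether called or not. *Prkaca*, the catalytic subunit of protein kinase A, had 1310, 1315 and 1211 normalized counts in control and 1195, 1151 and 1207 in knockout libraries (log2 fold change -0.11, edgeR adjusted p 0.181). *Creb1*, the cAMP response element binding protein, had a log2 fold change of 0.40 (edgeR adjusted p 0.00674), under the fold threshold, and *Crem*, its relative, one of 0.33 (edgeR adjusted p 0.0931). *Gnas*, the stimulatory G protein, had 130, 137.5 and 127 against 165, 175 and 272.5 normalized counts (log2 fold change 0.64, edgeR adjusted p 0.0515), with reads that its overlapping antisense transcript could have taken, since the strand setting is not stated. 

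Genes known as raised by FSH or cAMP in Sertoli cells numbered 22, of which 21 were listed and 19 tested. In knockout cells 4 were called lower and 1 higher, 26.3% of those tested beside 12.0% of all genes (3 called without *Pa1*F/F replicate 1), with a median log2 fold change of -0.11 that was -0.28 without *Pa1*-/- replicate 3. *Inha* and *Inhbb* encode subunits of the inhibins, which feed back on pituitary FSH. *Inha* had 6542, 6199 and 5570 normalized counts in control and 2206, 2580 and 2998 in knockout libraries, a log2 fold change of -1.23 ± 0.12 (SE). *Inhbb* fell by 1.003 on the log2 scale, from 2132 ± 135 to 1064 ± 185 normalized counts (SD, n = 3), and was under the fold threshold at -0.95, -0.96 and -0.89 without *Pa1*F/F replicate 1, *Pa1*-/- replicate 1 and *Pa1*-/- replicate 2. *Shbg*, sex hormone binding globulin, which is the androgen binding protein of Sertoli cells, had 1408, 1366 and 1283 against 451, 481 and 729 (log2 fold change -1.29 ± 0.18, SE). *Gdnf*, the growth factor that keeps spermatogonial stem cells, had 710, 654 and 737 against 278, 295 and 266.5 (log2 fold change -1.32 ± 0.08, SE). The libraries of each of these 4 genes did not overlap, and edgeR adjusted p lay between 0.000159 and 0.00253. Libraries also did not overlap in 14 of the 19 tested genes of the list and in 52.4% of all tested genes. *Junb*, an immediate early AP-1 gene that overlaps *Prdx2* on the opposite strand, rose by 1.29 (edgeR adjusted p 0.0155), with 2588, 2468 and 5045 normalized counts in knockout libraries, but its log2 fold change was 0.88 without *Pa1*-/- replicate 3 and its adjusted p 0.0610 and 0.0626 without *Pa1*F/F replicates 1 and 3. *Trf*, transferrin, a classical Sertoli cell product, had a mean of 2.88 and 4.06 normalized counts and was not tested.

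A list of 28 genes of androgen action, with chaperones, coregulators and 5-alpha reductases, was tested whole. Of these 3 were called lower and 0 higher, 10.7% beside 12.0% of all genes, and their median log2 fold change was -0.06. *Fkbp5*, an immunophilin that works with HSP90 and is an androgen and glucocorticoid target, had 4981, 5046 and 4985 against 2168, 2005 and 2056 normalized counts, a log2 fold change of -1.27 ± 0.05 (SE, edgeR adjusted p 5.24e-05), and *Pa1*-/- replicate 3 did not differ from its group here. *Fkbp4*, the related immunophilin, fell by 1.02 (edgeR adjusted p 0.0137), a call lost without *Pa1*F/F replicate 1 (-0.90), *Pa1*F/F replicate 3 (-0.95) or *Pa1*-/- replicate 3 (-0.84). *Srd5a2*, which turns testosterone into dihydrotestosterone, had 43.5, 32.9 and 49.3 against 2.93, 4.51 and 9.02 normalized counts, a log2 fold change of -2.90 ± 0.40 (SE, edgeR adjusted p 0.00232).

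**Figure D3:**
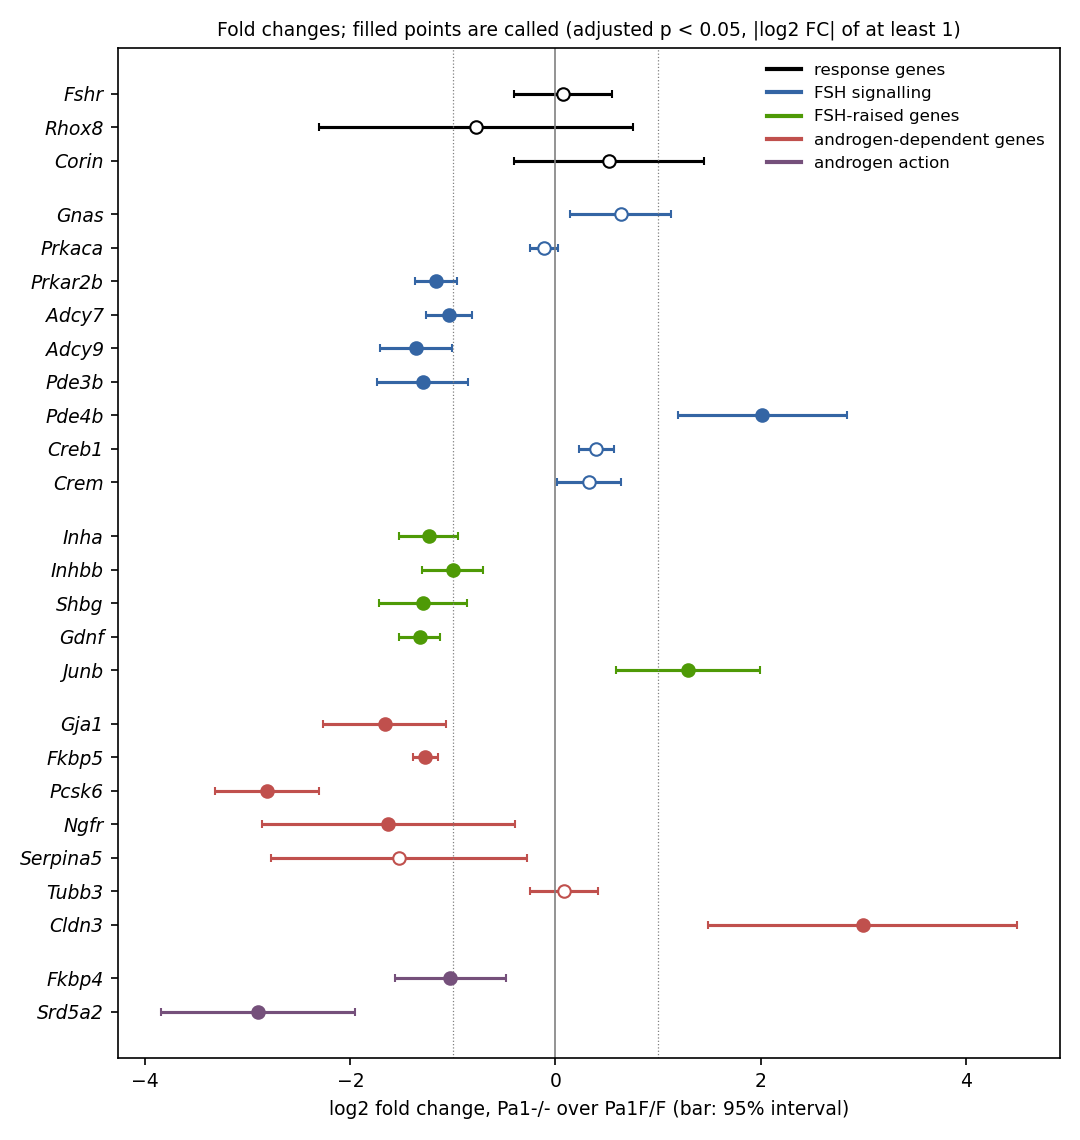
Log2 fold change of *Pa1*-/- over *Pa1*F/F (horizontal axis, points) with its 95% interval (bars) for the tested response genes and named genes of 4 lists (vertical axis, by colour), where filled points are called and dotted lines mark the fold threshold. The intervals of *Fshr*, *Rhox8* and *Corin* span 0, while *Pcsk6* at -2.81 and *Srd5a2* at -2.90 lie farthest to the left.

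Genes known as androgen dependent in Sertoli cells, outside the 5 genes above, numbered 20, of which 17 were tested. In knockout cells 4 were called lower and 1 higher, 29.4% of those tested beside 12.0% of all genes, and the median log2 fold change was -0.47 beside 0.00 for all tested genes. The list does not state whether androgen raises or lowers each gene, so these directions are not a measure of androgen action. *Pcsk6*, a proprotein convertase, had 149.5, 127 and 182.5 normalized counts in control and 24.4, 22.5 and 18.0 in knockout libraries (log2 fold change -2.81 ± 0.21, SE, edgeR adjusted p 0.000279), although a predicted gene overlaps it on the opposite strand. *Gja1*, connexin 43 of the gap junctions between Sertoli and germ cells, had 1226, 2015 and 1352 against 437, 379 and 632 (log2 fold change -1.66 ± 0.25, SE, edgeR adjusted p 0.00336). *Fkbp5* is given above. *Ngfr*, the low-affinity neurotrophin receptor, fell by 1.63 (edgeR adjusted p 0.0485), with 34.4, 26.1 and 29.4 against 2.93, 7.89 and 18.0, and kept the call in 1 of the 6 fits that left out a library, the one without *Pa1*-/- replicate 3, with adjusted p from 0.0811 to 0.139 in the others. *Cldn3*, a tight junction claudin, rose by 2.995 on the log2 scale, from 3.62, 1.94 and 4.20 to 13.7, 19.2 and 47.1 normalized counts (edgeR adjusted p 0.0115), and by 2.29 without *Pa1*-/- replicate 3. Its control values lie near the floor. *Tubb3* had a log2 fold change of 0.08 (edgeR adjusted p 0.675).

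*Serpina5*, *Kctd14* and *Fabp5*, chosen from this list after their values were seen, had an order across the libraries close to that of *Rhox8*. *Serpina5*, a serine protease inhibitor, had 2404, 3368 and 2012 normalized counts in control and 463, 498 and 1736 in knockout replicates 1, 2 and 3. *Kctd14* had 478, 603 and 513 against 144.5, 153 and 525. *Fabp5*, a fatty acid binding protein, had 287, 363 and 316 against 124, 132 and 279. In each of the 3, *Pa1*-/- replicates 1 and 2 were low and replicate 3 was near or within the control range. With all 6 libraries their edgeR adjusted p was 0.0611, 0.173 and 0.0752. Without *Pa1*-/- replicate 3 they were called lower at log2 fold changes of -2.43, -1.83 and -1.33, and the list then had 7 genes called lower and 1 higher, in a fit that called 13.5% of 15354 tested genes. Other genes of the list went the other way. With all 6 libraries *Gpd1* (log2 fold change 0.86), *Clstn1* (0.45) and *Ssx2ip* (0.42) were higher, under the fold threshold, at edgeR adjusted p from 0.00310 to 0.00643. An adjusted p under 0.05 was reached by 6 genes lower and 4 higher, beside 35.3% of all tested genes.

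**Figure D4:**
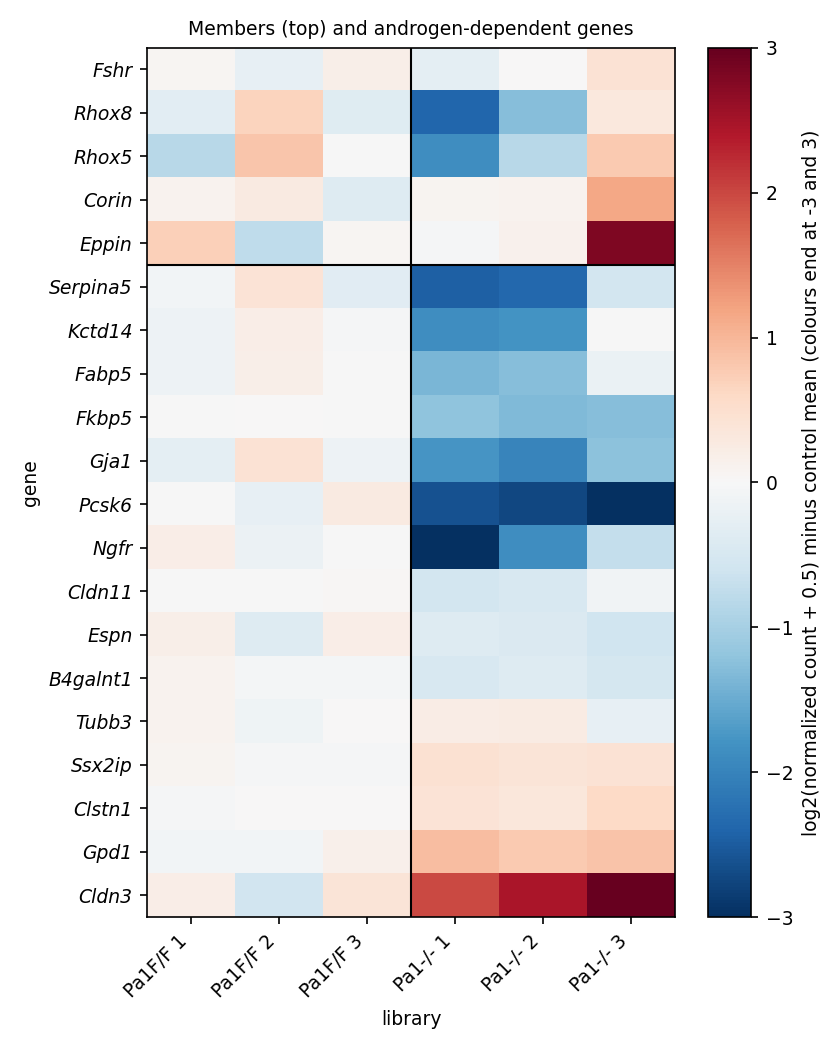
Log2 of the normalized count + 0.5, minus the control mean, in each of the 6 libraries (columns) for the 5 response genes (above the line) and 15 androgen-dependent genes (rows below it), from blue (lower) to red (higher). *Serpina5*, *Kctd14* and *Fabp5* share with *Rhox8* and *Rhox5* a blue *Pa1*-/- 1 and 2 and a paler or red *Pa1*-/- 3, while *Fkbp5* is blue in all 3 knockout libraries.

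In a list of 15 other hormone receptors 9 were tested, 2 were called lower and 0 higher, 22.2% of those tested beside 12.0% of all genes, and the median log2 fold change was -0.03, which was -0.28 without *Pa1*-/- replicate 3 and 0.14 without *Pa1*-/- replicate 1. An adjusted p under 0.05 alone was reached by 4 receptors that were lower and 2 that were higher, beside 35.3% of all tested genes in either direction. *Prlr*, the prolactin receptor, had 58.0, 32.9 and 66.1 against 17.6, 18.0 and 21.0 normalized counts (log2 fold change -1.46 ± 0.31, SE, edgeR adjusted p 0.0114). *Thrb*, a thyroid hormone receptor, fell by 1.11 (edgeR adjusted p 0.0142), and the call was lost without *Pa1*F/F replicate 3 (edgeR adjusted p 0.0559) or *Pa1*-/- replicate 3 (log2 fold change -0.87). *Esr1*, estrogen receptor alpha, chosen here after its values were seen, had a log2 fold change of -0.996 (edgeR adjusted p 0.00713) that lay just short of the fold threshold. It was called lower without *Pa1*F/F replicate 1 (-1.01), *Pa1*F/F replicate 2 (-1.05) or *Pa1*-/- replicate 3 (-1.13).

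Markers of Sertoli and other testis cells were read beside these lists, and their counts of calls stand beside the 12.0% of all genes. Of the 14 Sertoli cell markers the transcription factor *Sox8* was called lower (log2 fold change -1.85 ± 0.27, SE, edgeR adjusted p 0.00294) and *Cst9*, a cystatin, higher (2.85 ± 0.28, SE, edgeR adjusted p 0.000694). An adjusted p under 0.05 was reached by 7 of the 14, 4 lower and 3 higher, and 5 of these fell short of the fold threshold, *Gata4*, chosen after its values were seen, among them (log2 fold change -0.88, edgeR adjusted p 0.000325). The median log2 fold change was -0.06. Without *Pa1*-/- replicate 3, *Amh* (-2.16) was also called lower and *Gata1* (1.18) higher. The summed level of the list, 16654 to 16880 CPM in control and 10497 to 13234 CPM in knockout libraries, was mostly that of *Clu*, clusterin, which had a log2 fold change of -0.69 (edgeR adjusted p 0.0220).

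For Leydig cells, which make testosterone, 3 of 7 markers were tested and all 3, *Star* (log2 fold change -1.59), *Cyp11a1* (-3.59) and *Hsd3b1* (-1.99), were called lower. These genes of steroid synthesis made up nearly all of the summed level, which was 794 to 911 CPM in control and 165 to 288 CPM in knockout libraries. *Insl3*, *Cyp17a1*, *Hsd3b6* and *Lhcgr* had at most 2, 3, 4 and 15 counts in any library, control libraries included, and reads of *Insl3* could have been lost to *Jak3*, which overlaps it on the same strand. The 15, 10 and 6 counts of *Lhcgr* in control and 2, 2 and 3 in knockout libraries did not overlap, and in a fit without the filter its log2 fold change was -1.97 (95% interval -3.27 to -0.66, edgeR adjusted p 0.0383). Of 8 macrophage markers 6 were tested and *Cd68* (-1.65), *Adgre1* (-3.38), *Csf1r* (-2.49) and *Ptprc* (-2.78) were called lower, with 6 called lower without *Pa1*F/F replicate 2 or without *Pa1*-/- replicate 3. Their summed level, 92.5 to 98.7 CPM against 69.3 to 90.6 CPM, was mostly that of *Mrc1*, a mannose receptor, which had a log2 fold change of 0.17 (edgeR adjusted p 0.254).

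Of 6 endothelial markers 4 were tested. *Pecam1* (-1.73) was called lower and *Vwf* (1.63) higher, the second with an edgeR adjusted p of 0.0659 to 0.108 in the 4 fits without *Pa1*F/F replicate 1 or 3 or *Pa1*-/- replicate 1 or 2, and the summed level was 116 to 122 CPM against 63.9 to 101.1 CPM. Of 15 germ cell markers 13 were listed, 4 tested and *Ddx4* (-1.64) called lower, a call lost in the 4 fits without any 1 *Pa1*F/F library or without *Pa1*-/- replicate 1, and the summed levels, 41.1 to 51.3 CPM against 27.5 to 41.4 CPM, overlapped. Of 6 rete testis and efferent duct markers 3 were tested and the keratin *Krt19* (4.999) was called higher, and the summed level was 17.1 to 19.7 CPM against 23.8 to 27.4 CPM. Counts of 3 or fewer in every library were found for 0 macrophage, 2 Leydig cell, 1 endothelial, 7 germ cell and 1 rete testis markers. The part of other cells in the values of the androgen and FSH genes was not tested.

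The genes whose log2 CPM over the 6 libraries was most like each tested gene were read as a description, with no p, since 6 libraries are shared by all genes. They were *Asb2* (Pearson's r 0.997), *Cd2ap* (0.989) and *Klhl29* (0.987) for *Fshr*. For *Rhox8* they were *Tnfrsf1a* (0.997), *Net1* (0.988) and *Swt1* (0.987). For *Corin* they were *Vsig1* (0.994), *Pole3* (0.992) and *Tbl2* (0.990). They do not stand alone, since an r over 0.95 was reached by 20 genes for *Fshr*, 60 for *Rhox8* and 65 for *Corin*. An r also takes no account of size: *Tnfrsf1a* ran only from 1678 to 1877 normalized counts. The 5 response genes did not form one pattern: beside *Rhox5* and *Rhox8*, *Fshr* and *Eppin* had an r of 0.84, *Eppin* and *Corin* 0.78, and *Rhox8* and *Eppin* 0.24. Between response genes, r was taken on log2 normalized counts with a small constant added, and not on log2 CPM.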

How the data were processed

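RNA-seq was made from 6 libraries of purified Sertoli cells, 3 *Pa1*F/F and 3 *Pa1*-/-, grouped by their labels. Reads were aligned to GRCm38 with HISAT2 2.1.0 and counted per gene with HTSeq 0.6.0, per the submitters' processing notes, and the authors deposited the counts without normalization. The authors' own comparison was deposited beside them and was not used: a mean signal per gene over the libraries, the ratio of knockout over control, its log2 value, and a p-value with its adjusted p-value. The strand setting of the counting is not given in the sources used here.

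Genes were filtered with edgeR 4.0.16 (filterByExpr, minimum count 10, minimum total count 15), scaled by TMM (factors 0.990 to 1.03) and compared by its quasi-likelihood F-test in R 4.3.3, with adjustment over 14919 genes and the thresholds of the study. A normalized count is the count per effective library size times the mean effective size. Log2 CPM used a prior count of 3. Exon lengths were taken from GENCODE vM39. Intervals and floors cover counting and library spread only, since reads without molecular identifiers are not independent molecules. In simulated counts for this comparison (14882 genes tested, 200 changed by a log2 fold change of 2), 100% of those changed were called and 0.99% of calls were false. The simulation gave every gene the same dispersion, had no library that stands apart and changed only genes with higher counts. It therefore checks the code and does not give the power for low genes or for genes such as *Rhox8* that vary between libraries.

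The members, gene lists and tests were chosen with earlier results of these data known. The text names the 5 genes, the called genes of each pathway and marker list, 12 genes that define the pathways, members of the *Rhox* family with at least 10 counts in a library, neighbours, and the 3 genes most alike in pattern. One gene of these lists is not reported here. Alternatives were DESeq2 1.42.0 (size factors and Wald test), library size only, limma-voom (limma 3.58.1), no filter, 10 counts in every library, a test of whether the log2 fold change exceeds 1, the replicate number as a block, each library left out, the close pairs of libraries summed, and the close pairs alone, which was added after the data had been seen.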

Additional observations from a re-analysis of the deposited data

How the results depend on the processing

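Of 176 values recomputed under alternatives, 14 became weaker, 6 stronger and 3, all of *Fshr*, changed sign. The other 153 kept their side of the threshold, kept a count within 1.5 times or, for values with no test, moved by less than the SD between replicates. Among these the difference in mean normalized counts of *Rhox5*, -2.31, was 0.70 without *Pa1*F/F replicate 2 and 0.30 without *Pa1*-/- replicate 1, and that of *Eppin*, 4.85, was -0.13 without *Pa1*-/- replicate 3 and -0.76 with the 2 close libraries per genotype, so that both turned direction. The log2 fold change of *Fshr* ranged from -0.14 to 0.23 when 1 library was left out and was -0.25 with the close libraries alone. For *Rhox8* the range was -1.83 to -0.34 and the value with the close libraries -1.42, so that the number of the 5 genes called went from 0 to 1 without *Pa1*-/- replicate 3 and was 1 with the close libraries. Those fits called 2076 and 2207 of all genes, in place of 1791. Against a log2 fold change of 1, 538 of all genes were called in place of 1791, 0 in the FSH signalling list in place of 5, 1 in the FSH-raised list in place of 5, 2 in the androgen-dependent list in place of 5 and 0 among the hormone receptors in place of 2. With the close pairs summed, which leaves fewer libraries, 883 of all genes were called, with 2 for FSH signalling, 2 for FSH-raised genes, 3 for androgen-dependent genes, 1 in place of 3 for androgen action and 0 hormone receptors. Leaving out 1 library gave 3 to 5 calls for FSH-raised genes, 4 to 8 for androgen-dependent genes and 1 to 3 for hormone receptors. Over all genes these fits called 1466 to 2076. The close libraries alone gave 8 androgen-dependent genes, in a fit that called 2207 of all genes. A filter of 10 counts in every library gave 3, in a fit that called 1268 of all genes. Where no construction of the alternative shows it, the cause was not tested. *Rhox5* and *Eppin* have too few counts to place a difference. Replicates with the same number in both genotypes deviated from their group means with correlations of 0.108, -0.164 and -0.179. With 3 libraries per genotype, 1 of which stands apart, these values cannot settle whether the numbers pair the libraries. The highest correlation of any pair across genotypes, 0.214, was between *Pa1*F/F replicate 2 and *Pa1*-/- replicate 3, the libraries that stand apart and that are the highest of their genotype for *Rhox8* and *Rhox5*. With a replicate block the log2 fold change of *Rhox8* was -1.07 (edgeR adjusted p 0.259), and 0 of the 5 genes was called.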
